A study of Homo sapiens with 4 samples.

Results

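The regions described here are m6A peaks that the authors annotated as Exon and that run over at least 1 exon junction. Exon is the authors' class for coding exons outside the UTRs and the start and stop codons. A listed peak was taken as junction-spanning where its end minus its start exceeded its listed exonic width. Intervening bases, taken as intronic, then lay inside its span. Each region was counted once by chromosome, start, end and strand. There were 3717 such peaks among 19929 listed peaks in cells treated with meclofenamic acid (MA), a share of 18.7% (exact 95% interval 18.1 to 19.2%), and 3901 among 22067 in control cells (NC), a share of 17.7% (17.2 to 18.2%). They lay in 2679 genes of the MA list and 2820 genes of the NC list, 3689 genes in all. The 1810 genes with a junction-spanning Exon peak in both lists were 67.6% of the MA genes and 64.2% of the NC genes.

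N6-methyladenosine (m6A) is a methyl mark on adenosines inside messenger RNA. METTL3 and METTL14 form the methylating core, WTAP, VIRMA, ZC3H13 and RBM15 guide it, FTO and ALKBH5 can remove the mark, and YTH-domain proteins bind it. Exon junction complexes, built on EIF4A3, RBM8A and MAGOH, are left just upstream of each junction by splicing and keep the mark away from nearby sequence, so that m6A is usually densest in long internal exons and in last exons. A peak over a junction is an enriched stretch of spliced RNA that takes in sequence beside a junction, where the mark is usually sparse. Where the mark lies within the peak is not given. Such a peak may be a long exon with its neighbours or a run of short exons.

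The material was OMM2.3, an established human uveal melanoma cell line labelled wild type. The exposure lasted 24 h, either to meclofenamic acid, a non-steroidal anti-inflammatory drug that inhibits the demethylase FTO, or to DMSO, the control. Poly(A) RNA was fragmented, part was sequenced as input and part after capture on beads carrying an m6A antibody (meRIP-seq), with 1 input and 1 RIP library for each condition and no replicate. No difference between MA and NC could therefore be set against a spread between replicates, and no p-value is given. All intervals are exact 95% intervals and cover counting error only. Those of shares treat peaks or genes as independent, though a gene can hold several peaks and each list rests on 1 RIP library. Those of read ratios treat reads as independent, though PCR reads that carry no molecular identifier can repeat a molecule.

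The inputs held 41630895 reads in MA and 37041597 in NC, as worked back from the FPKM values. All 8 melanocyte markers (PMEL, MLANA, TYR, DCT, TYRP1, MITF, SOX10 and PRAME) were at 1 FPKM or more in both inputs, with a summed level of 3420 FPKM in MA and 7773 FPKM in NC. Of 4 fibroblast markers in the table LUM alone reached 1 FPKM, of 2 immune markers CD68 alone, and of 2 endothelial and 5 epithelial markers 0. Sequences of the regions are not printed, since no genome of the files' build was used here.

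The typical member was a short exonic stretch with a long intervening gap. The median exonic length was 300.0 bases in MA and 297 in NC, and the quartiles were 200.0 and 546 bases in MA and 200.0 and 450.0 bases in NC. Starts and ends below are given by coordinate on GRCh38.p13, whatever the strand. The median intervening length was 3482 bases in MA and 3286 bases in NC. Members with more than 10000 intervening bases numbered 776 in MA (20.9%) and 733 in NC (18.8%). Members at most 160 bases long made up 17.9% of the MA members and 20.7% of the NC members, and those over 1000 bases 6.81% and 4.84%. Together they covered 1.61 Mb of exonic length in MA and 1.52 Mb in NC, which was 18.7% and 17.3% of the length of all listed peaks.

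Few members lay close to the limit of the rule. Only 2 MA members and 3 NC members had under 50 intervening bases, while the peaks just outside the rule had 0. The smallest excess was 2 bases, in POLR2A, the large subunit of RNA polymerase II (chromosome 17, 7513114 to 7514116 in both lists). MPHOSPH9 followed with 29 bases in each list, then MAIP1 with 37 bases in NC. Whether such short excesses are introns was not tested. The authors' FDR was above 0.05 for 6 MA members and 12 NC members, so the lists are almost wholly of regions below that level. The widest gap, 272883 bases, was in EXT1, a heparan sulfate polymerase (chromosome 8, named after its values were seen). Its member was listed at 117837195 to 118110777 in MA and at 117837145 to 118110727 in NC, with 700.0 exonic bases in each.

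Among all Exon peaks, the members were the majority in both lists. They made up 54.9% of 6773 Exon peaks in MA (53.7 to 56.1%) and 52.3% of 7465 in NC (51.1 to 53.4%). The other classes were also spliced more often in the MA list. For 5' UTR peaks the spanning share was 61.6% in MA and 55.6% in NC, for start codon peaks 74.1% and 69.4%, for stop codon peaks 61.7% and 52.6%, and for 3' UTR peaks 24.6% and 20.1%. Among Exon peaks whose host gene reached 5 FPKM in each input, the shares were nearly equal, 66.6% in MA and 66.9% in NC. The part of host level in the order of the lists was not tested.

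The spanning share climbed with the input level of the host gene, from the lowest level to the highest, in both lists. In genes under 1 FPKM it was 28.4% in MA (24.1 to 33.0%) and 23.0% in NC (20.3 to 25.9%). In genes at 1 to 5 FPKM it was 37.5% in MA and 44.3% in NC. In genes at 50 FPKM or more it was 85.0% in MA (80.5 to 88.8%) and 78.4% in NC (73.9 to 82.4%). Members thus sat in more abundant transcripts than Exon peaks within 1 exon. The median host level per peak was 9.82 FPKM for MA members and 4.50 FPKM for MA peaks within 1 exon, and 7.45 FPKM for NC members and 3.13 FPKM for NC peaks within 1 exon.

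**Figure D1:**
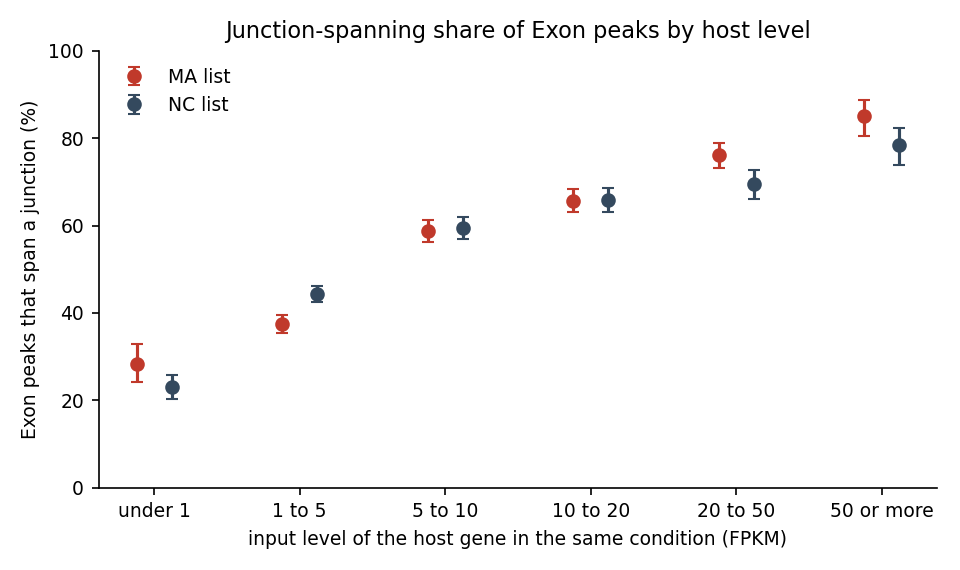
Share of Exon peaks that span a junction (y axis, %) by the input FPKM of the host gene in the same condition (x axis), for the MA list (red) and the NC list (dark blue). Points are shares and bars exact 95% intervals for counting error; the share climbs in every step of both lists, to 85.0% in MA and 78.4% in NC at 50 FPKM or more.

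Members had lower fold enrichment than Exon peaks within 1 exon of the same list. The fold is the authors' own value per peak, RIP over input, and is used here only within a list. The MA members had a median fold of 2.60 (quartiles 2.00 to 3.67) and the MA peaks within 1 exon 3.50 (2.56 to 5.00). In the NC list the medians were 3.00 (2.12 to 4.33) and 4.00 (3.00 to 6). The lower fold of members held in every length class, for example 2.00 and 2.70 among MA peaks of at most 160 bases, and 4.52 and 5.14 among MA peaks of 1011 bases or more. It held in every class of host level but 1, MA genes under 1 FPKM, where both medians were 4.00. In genes with both kinds of peak, the median member lay below the median peak within 1 exon in 307 of 539 MA genes and above it in 231, and in NC below it in 367 of 642 genes and above it in 265. Folds that were whole numbers, as arise from few input reads, were listed for 13.7% of members and 27.1% of peaks within 1 exon in MA, and for 19% and 38.7% in NC. The part of this difference in the fold medians was not tested.

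**Figure D2:**
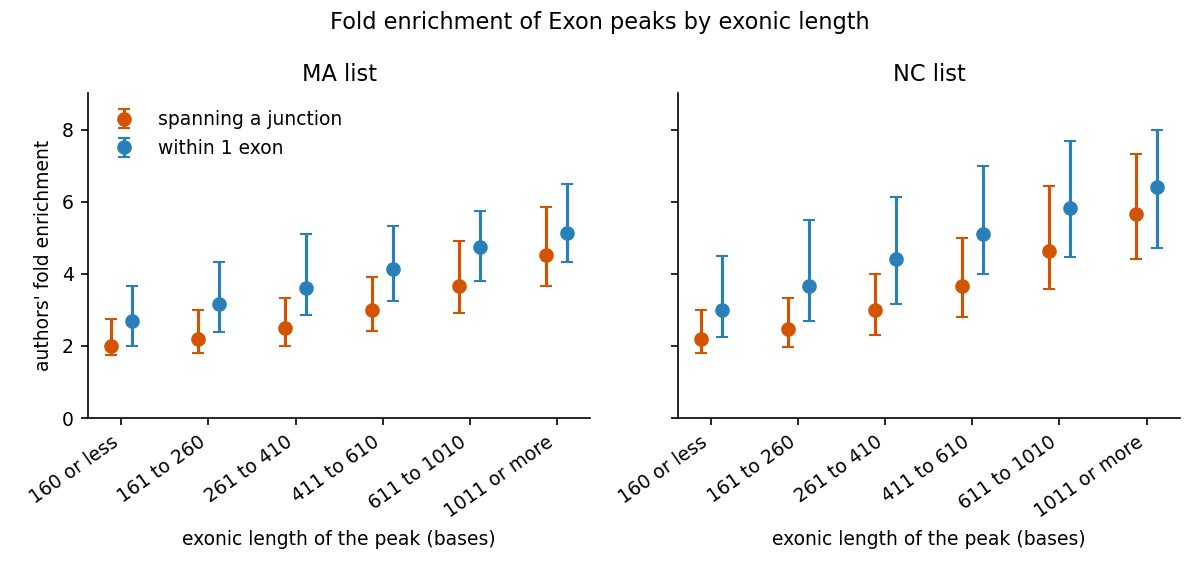
The authors' fold enrichment (y axis) by exonic length of the peak in bases (x axis) for Exon peaks spanning a junction (orange) and within 1 exon (blue), in the MA list (left) and the NC list (right). Points are medians and bars run from the lower to the upper quartile over peaks; the orange median is the lower of the pair in all length classes.

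About 3 in 4 members had a peak of the other condition at the same place. A partner was any peak on that strand in the other list whose span shared at least 1 base, introns included. It was found for 2819 of 3717 MA members (75.8%, 74.4 to 77.2%), beside 79.7% of all MA peaks, and for 2871 of 3901 NC members (73.6%, 72.2 to 75.0%), beside 73.8% of all NC peaks. The NC share is thus near that of all peaks. For Exon peaks within 1 exon the shares were 80.2% in MA and 79.0% in NC. When at least 50% of both spans had to be shared, 47.1% of MA members kept a partner, beside 51.5% of all MA peaks, and 46.0% of NC members, beside 46.5% of all NC peaks.

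Span overlap can be intronic only, and the lists give no exon blocks. A shared exonic base is certain where 2 peaks have the same start or the same end, or overlap by more than the intervening bases of both. By this criterion, chosen after the data were seen, 34.1% of MA members (32.6 to 35.6%) and 32.6% of NC members (31.1 to 34.1%) had a partner. Peaks within 1 exon, which have no intervening bases of their own, reached 70.1% in MA and 64.5% in NC. All peaks reached 58.5% in MA and 53.4% in NC. Long gaps make the overlap part of this criterion hard to meet, so it favours peaks within 1 exon over members. With the same start or the same end alone, the shares were 32.7% of MA and 31.6% of NC members. They were 29.2% and 26.3% for peaks within 1 exon, and 36.4% and 33.0% for all peaks. Both ends were identical for 190 members, 5.11% of MA and 4.87% of NC members. Partnered members were longer than the others, with median exonic lengths of 351 and 200.0 bases in MA and 349 and 200.0 bases in NC. In the shortest class, at most 160 bases, 46.7% of MA and 45.3% of NC members had a partner, and among those of 1011 bases or more 100.0% in both lists.

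**Figure D3:**
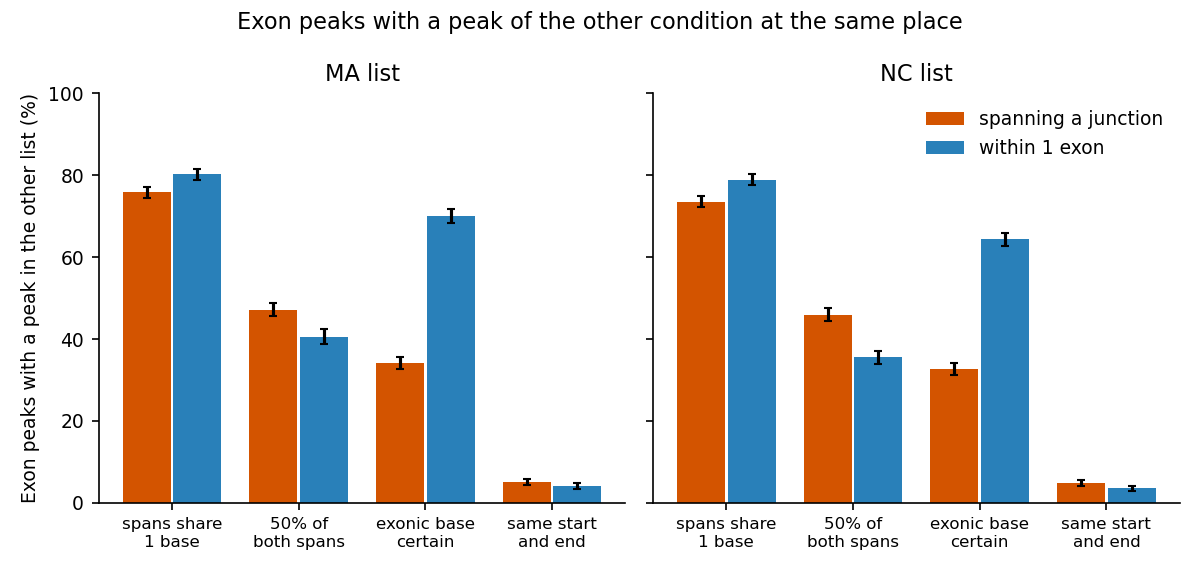
Share of Exon peaks with a peak of the other condition at the same place (y axis, %) under 4 overlap criteria (x axis), for peaks spanning a junction (orange) and within 1 exon (blue), in the MA list (left) and the NC list (right). Bars are shares and lines exact 95% intervals for counting error. Members lie at 75.8% in MA and 73.6% in NC for any shared base of the spans. They lie at 34.1% and 32.6% where a shared exonic base is certain, a criterion that their long gaps make harder to meet.

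The partner was usually another junction-spanning Exon peak. Taking the partner of longest overlap, this was so for 76.3% of partnered MA members and 76.6% of partnered NC members. Of the 2329 overlapping pairs of members, 38.2% had the same intervening length, that is, the same number of intronic bases inside both spans. In 24.3% both ends lay within 50 bases of each other, and in 44.7% they had at least 1 end in common. A spliced 3' UTR peak was the partner for 167 MA members and 229 NC members. Those MA peaks were long, with a median of 750.0 exonic bases against 300.0 for the NC members they overlapped, and in the other direction the NC 3' UTR peaks had 646 bases against 299 for the MA members.

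In some genes, neighbouring members of one list were 1 longer peak in the other. MA members that lay wholly inside a longer NC peak numbered 747 (20.1%), and NC members inside a longer MA peak 1128 (28.9%). Of the 3717 MA members 215 (5.78%) lay under a NC peak that overlapped at least 2 of them, and of the 3901 NC members 335 (8.59%) under such a MA peak. A single MA peak ran over at least 2 NC members in 176 cases, 141 of them Exon and 18 of them 3' UTR peaks. A single NC peak ran over at least 2 MA members in 124 cases, 113 of them Exon and 4 of them 3' UTR peaks. These shares were counted for members only, so whether they differ from those of other peaks was not tested. A gene could in this way have members in 1 list and peaks of another class in the other. Of the 869 genes with a member in MA only, 725 (83.4%) had a NC peak of another kind. Of the 1010 genes with a member in NC only, 810 (80.2%) had a MA peak of another kind. Over all listed peaks, genes with a peak numbered 9075 in MA, 9515 in NC and 10101 in either list. Most genes with a peak in 1 list thus had one in the other, so these shares are not particular to members.

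CENPE, CENPF and MKI67 show this layout in genes of cell division, whose input levels were higher in MA. CENPE, a kinesin of the kinetochore on chromosome 4, was at 12.6 FPKM in MA and 3.18 FPKM in NC. It had 2 members in MA and 7 in NC. The longest MA member (103133789 to 103159161) joined 4180 exonic bases over 21193 intervening bases, and 4 of the NC members, of 200.0 to 1145 bases, lay in or across its span. CENPF, another kinetochore protein, on chromosome 1, was at 35.7 FPKM in MA and 14.4 FPKM in NC, with 1 member in MA and 4 in NC. There a MA peak of 8467 exonic bases (214629085 to 214664023), classed as 3' UTR, covered 1 NC member of 648 bases, part of another of 3239 bases, a NC peak of 200.0 bases within 1 exon and the NC 3' UTR peak of 3836 bases.

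MKI67, the proliferation marker Ki-67 on chromosome 10, was at 48.7 FPKM in MA and 20.8 FPKM in NC. It had 0 members in MA and 2 in NC. The longer NC member (128105927 to 128109900) covered 3545 exonic bases, ended at the same base as a MA peak of 8487 bases classed as 3' UTR (128098106 to 128109900), and was followed by a NC 3' UTR peak of 4892 bases. The shorter NC member, of 250.0 bases, lay under a MA peak of 1448 bases classed as 5' UTR. Both NC members of MKI67 thus lay in spans that MA listed under another class. Over the list of 21 genes of G2 and M phase, 14 members lay in 11 genes in MA and 30 members in 12 genes in NC. Both lists had one in 10 of these genes. The shares of genes were 52.4% in MA and 57.1% in NC, beside 24.3% and 25.7% of all genes that reached 1 FPKM in either input.

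**Figure D4:**
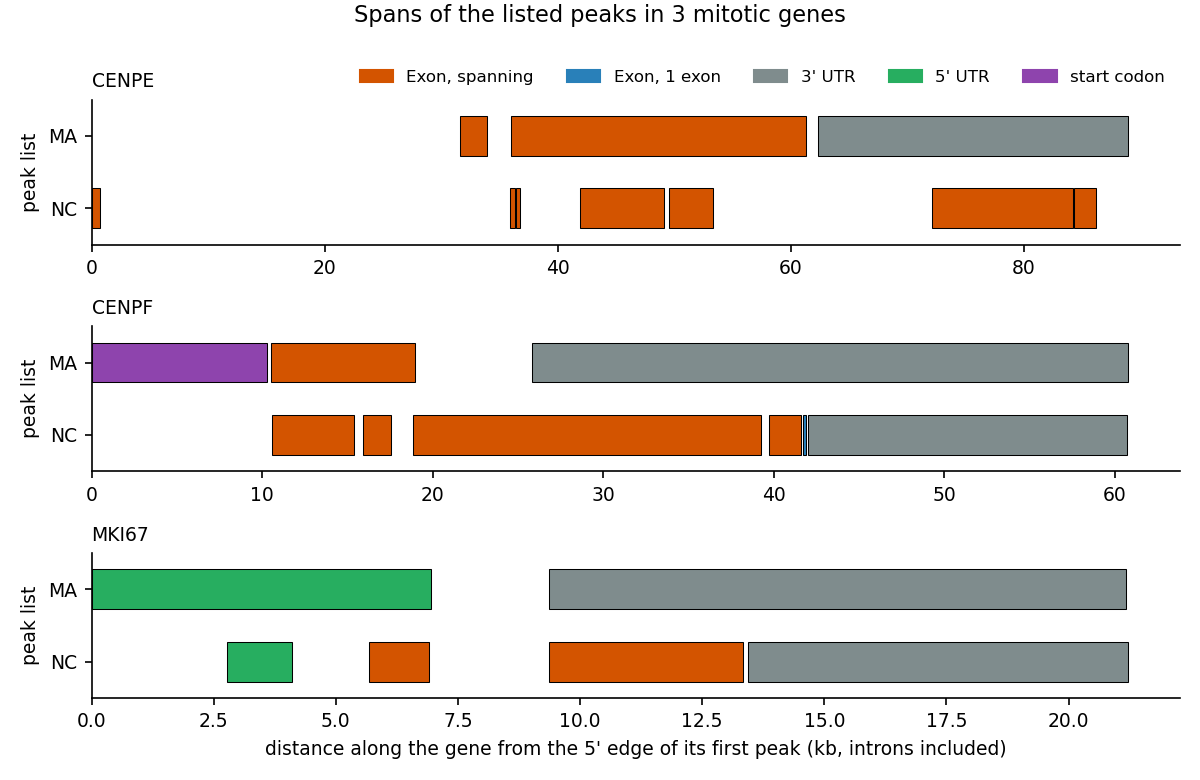
Spans of all listed peaks in CENPE, CENPF and MKI67, MA above NC, against the distance from the 5' edge of the gene's first listed peak (kb, introns included); colour gives the authors' class, with Exon peaks split into junction-spanning (orange) and within 1 exon (blue). CENPE has 2 orange spans in MA and 7 in NC, CENPF 1 and 4, and MKI67 0 and 2.

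Among genes that reached 5 FPKM in each input, the partnered MA members with the highest folds were in EIF3C, a subunit of translation initiation factor eIF3 (chromosome 16, 28714888 to 28724682, 600.0 exonic bases, fold 33.7), GOLGA8B (fold 20), CCDC88A, an actin-binding protein (chromosome 2, 55295526 to 55299842, 801 bases, fold 14.0), the nuclear pore protein POM121 (fold 12) and the transcription factor CUX1 (chromosome 7, 102193849 to 102202028, 1648 bases, fold 11). EIF3C, GOLGA8B and POM121 have near-identical copies elsewhere in the genome, so their read assignment is uncertain. For CUX1 the NC member began at the same base and was shorter, 849 bases. For CCDC88A the NC partner was a peak within 1 exon of 551 bases.

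Among genes at that level, the partnered NC members with the highest folds were in EIF3C (fold 23.8), RBBP6, a ubiquitin ligase (chromosome 16, 24569995 to 24572215, 1845 exonic bases, fold 21), POM121 (fold 17.0), RBM15, an adaptor of the m6A writer complex (chromosome 1, 110339873 to 110345573, 2431 bases, fold 14.5), and TGS1, which makes the trimethylguanosine cap of small nuclear RNAs (chromosome 8, 55786273 to 55792737, 946 bases, fold 12). RBBP6 had a MA peak over the same stretch with the same 376 intervening bases, 3440 bases long and classed as 3' UTR. RBM15 had a MA peak of 2183 bases within 1 exon that lay inside the NC span.

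Among genes at that level, the MA members without a partner that had the highest folds were in CCZ1B (chromosome 7, 6819904 to 6824641, 344 bases, fold 48.0), THOC3 of the THO complex of mRNA export (fold 47.0), the signal peptidase subunit SPCS2 (fold 14.0), the vesicle tethering factor TRAPPC10 (fold 7.00) and PCLO, a presynaptic scaffold (chromosome 7, 82956926 to 82966161, 401 bases, fold 5.33). In NC they were in GTF2I, GOLGA8B, CBS, NPIPA1 and ANAPC1, a subunit of the anaphase-promoting complex (chromosome 2, 111780353 to 111782486, 151 bases, fold 12). CCZ1B, GTF2I, GOLGA8B, CBS, NPIPA1 and ANAPC1 also have near-identical copies. Host levels were, for example, 15.4 FPKM in MA and 13.5 FPKM in NC for CCZ1B, and 10.2 FPKM and 8.73 FPKM for ANAPC1.

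The 5 longest members in MA were in TCF20, a chromatin-associated cofactor (5039 exonic bases, chromosome 22, 42179681 to 42214667), BOD1L1, which protects replication forks (4639 bases), ANKRD11, a chromatin regulator (4440 bases), CENPE (4180 bases) and ZC3H13, a subunit of the m6A writer complex (3796 bases). In NC the 5 longest were in ANKRD11 (4440 bases), NUMA1, the spindle pole protein (4248 bases), ZC3H13 (4146 bases), TCF20 (4141 bases) and MKI67 (3545 bases). ANKRD11 had the same start and end in both lists (chromosome 16, 89281404 to 89286706, 863 intervening bases), and TCF20 the same start with the same 29948 intervening bases. For BOD1L1 the NC partner was short, 300.0 bases.

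Most host genes had a single member and a few had many. Of the host genes, 2003 in MA (74.8%) and 2102 in NC (74.5%) had a single member, and 203 in MA (7.58%) and 213 in NC (7.55%) had at least 3. Most were in SYNE2, a giant nesprin that ties the nucleus to the cytoskeleton, with 21 members in MA and 14 in NC (8720 and 4413 exonic bases). DST, a spectraplakin linking actin, microtubules and intermediate filaments, had 14 in MA and 13 in NC, its relative MACF1 10 and 11, and the other giant nesprin SYNE1 13 and 9. PCM1, the centriolar satellite scaffold, had 9 in MA and 5 in NC. Input levels ran the same way as the counts in 4 of these 5 genes. SYNE2 was at 10.8 FPKM in MA and 4.95 FPKM in NC, SYNE1 at 6.63 and 2.44, PCM1 at 12.6 and 4.20, and DST at 9.54 and 3.47. The exception was MACF1, at 26.1 FPKM in MA and 16.8 FPKM in NC.

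In SYNE2 on chromosome 14 several members had fixed gaps across the lists. The stretch with 3586 intervening bases was listed at 64134070 to 64137856 with 201 exonic bases in both MA and NC. The member with 3332 intervening bases ran over 64186482 to 64190164 in MA and 64186532 to 64190114 in NC, with 351 and 251 exonic bases. In the 5' portion, where MA had separate members at 64002039 to 64007139 and 64009982 to 64017700, NC had a single one of 1000 exonic bases at 64002727 to 64016537. Merging of neighbours thus went in either direction.

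Genes of the exon junction complex and nonsense-mediated decay, the machinery that reads junctions, often had members themselves. Among 17 such genes, 9 had one in MA (52.9%) and 7 in NC (41.2%), beside 24.3% of all tested genes in MA and 25.7% in NC, and 6 had one in both. Tested genes are those that reached 1 FPKM in MA, NC or both. The core subunits had none in either list: EIF4A3, RBM8A, MAGOH and MAGOHB. CASC3, the fourth core component, had 2 members in each list (1238 exonic bases in MA, 1090 in NC). The peripheral factors PNN and ACIN1 had 1 and 1 in MA and 1 and 2 in NC, and RNPS1 and SAP18 had 1 each in MA and 0 in NC. The PNN members started at the same base (chromosome 14, 39175304), with 4430 intervening bases each and 1296 exonic bases in MA and 1246 in NC.

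Of the decay factors, UPF2 had 2 members in each list, SMG6 had 1 in each, and UPF3B had 0 in MA and 1 in NC. UPF1, the helicase of the pathway, UPF3A and SMG5 had 0 in both. SMG1, the kinase that phosphorylates UPF1, had 5 members in MA and 0 in NC, where 2 peaks within 1 exon were listed. SMG1 was at 15.3 FPKM in MA and 6.75 FPKM in NC and has many partial copies on chromosome 16, so its reads are uncertain.

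The m6A machinery had members in some of its transcripts. Of 9 writer genes, VIRMA and ZC3H13 had 1 each in MA (22.2% of the list, beside 24.3% of all tested genes), and METTL14, ZC3H13 and RBM15 had 1 each in NC (33.3%, beside 25.7%). The ZC3H13 member was the long one described above, at 18.99 FPKM in MA and 17.1 FPKM in NC. METTL3, WTAP, RBM15B, CBLL1 and METTL16 had 0 in both lists. FTO, the demethylase that the drug inhibits, had 1 member of 150.0 exonic bases in MA (chromosome 16, 53888847 to 53900684, fold 1.83) and 0 in NC, where a peak with the same start, classed as 3' UTR, covered 350.0 bases. FTO was at 2.95 FPKM in MA and 2.15 FPKM in NC. ALKBH5 had 0 members in both.

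Of 13 tested reader genes, 5 had a member in MA and 5 in NC (38.5% each), and 4 had one in both. Over all tested genes the shares were 24.3% in MA and 25.7% in NC. YTHDC1, the nuclear YTH reader, had 3 in MA and 2 in NC, and HNRNPC and FXR1 had 1 in each. FMR1, the fragile X protein, had 1 in MA and 2 in NC. The FMR1 stretch ended at the same base in both lists (chromosome X, 147943142 to 147948830 in MA and 147943191 to 147948830 in NC, 5090 intervening bases each). IGF2BP3 had 1 in MA only and PRRC2A 2 in NC only. The cytoplasmic readers YTHDF1, YTHDF2 and YTHDF3 had 0 members in both lists. IGF2BP1 was below 1 FPKM in both inputs and was not among the 13.

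Other gene lists differed widely in their share of genes with a member, which over all tested genes was 24.3% in MA and 25.7% in NC. Among 17 chromatin remodelling helicases, 16 had one in MA and 16 in NC (94.1% each), with 52 members in MA and 55 in NC. CHD7 had 6 in each list, BPTF 5 in each and EP400 5 in MA and 3 in NC. INO80 had 2 in MA and 4 in NC. Among 19 giant cytoskeletal and coat genes 18 had one in MA (94.7%) and 17 in NC (89.5%). Besides DST, MYCBP2 had 3 in each list, UTRN, which encodes utrophin, 4 in MA and 5 in NC, and HERC2 2 in MA and 4 in NC.

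Of 17 cohesin and condensin genes, 14 had a member in each list (82.4%), beside 24.3% of all tested genes in MA and 25.7% in NC. Their members numbered 24 in MA and 32 in NC. NIPBL, the cohesin loader, had 2 in MA and 3 in NC. A single MA member of 1749 exonic bases (chromosome 5, 36984821 to 37000457) covered 2 of these NC members, of 601 and 151 bases. WAPL, which releases cohesin, had 3 in each list, as did STAG2, and PDS5B 1 in each. The STAG2 member had 250.0 exonic and 2606 intervening bases in both lists, shifted by 50 bases (chromosome X, 124047384 to 124050239 in MA, 124047434 to 124050289 in NC). The topoisomerase TOP2A had 1 in each list, from the same start on chromosome 17 (40392308), with 1146 exonic bases in MA and 897 in NC.

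Aminoacyl-tRNA synthetases had a member in 6 of 20 genes in MA (30.0%) and 10 of 20 in NC (50.0%), 3 of them in both. All tested genes had one in 24.3% of cases in MA and 25.7% in NC. The seryl enzyme SARS1 had an identical member in the lists (chromosome 1, 109213993 to 109215161, 751 exonic bases), at 356 FPKM in MA and 368 FPKM in NC. EPRS1 had 3 in MA and 2 in NC, RARS1 2 in each, and LARS1 0 in MA and 2 in NC. Of 14 SR splicing factor genes, SRRM1 had 2 members in each list, SRRM2 0 in MA and 2 in NC, and SRSF6 0 in MA and 1 in NC.

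Of 15 housekeeping genes 0 had a member in either list, which allows a share of up to 20% (3 counts of 15), above the 16.5% in MA and 18.3% in NC of all tested genes at 50 FPKM or more. Of 20 ribosomal protein genes only RPS6 had one, in both lists, at 731 FPKM in MA and 733 FPKM in NC. Of 20 sterol synthesis genes only IDI1 had one, in both lists, with the same end (chromosome 10, 1041295 to 1042672 in MA and 1041345 to 1042672 in NC), at 30.3 FPKM in MA and 6.32 FPKM in NC. Of 12 melanocyte lineage genes only TYRP1, a melanosomal enzyme, had one, in MA and not in NC (chromosome 9, 12694300 to 12698490, 445 exonic bases), at 1327 FPKM in MA and 1921 FPKM in NC. NC had no listed peak in TYRP1. Of 18 uveal melanoma genes, 5 had a member in MA (27.8%) and 6 in NC (33.3%), beside 24.3% and 25.7% of all tested genes. Among them was PLCB4, a phospholipase downstream of Gq, with 1 in each list.

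Gene length, as worked back from the FPKM values, went along with these shares. Such a length can be too short. In simulated data that started mostly from these lengths, 14.7% came back as a whole fraction of the length put in. The share of the real lengths that are too short was not measured. Tested genes with at least 10000 exonic bases had a member in 47.3% of cases in MA (43.5 to 51.1%) and 47.8% in NC (44.0 to 51.6%), and genes under 2000 bases in 13.4% in MA (12.1 to 14.7%) and 14.3% in NC (12.96 to 15.7%). The median length was 12578 bases for the giant cytoskeletal list, 8138 for the helicases and 1070 for the ribosomal proteins. With input level the share climbed and then dropped again, from 10.7% in MA and 12.3% in NC under a mean of 1 FPKM, over 28.3% and 31.1% at 5 to 10 FPKM, to 16.5% and 18.3% at 50 FPKM or more. The parts of length and level in the lists' shares were not tested.

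No other peak was listed in 24.2% of host genes in MA and 22.6% in NC. Among the 2031 MA and 2183 NC host genes that had another peak, a 3' UTR peak was listed in 72.8% in both MA (70.8 to 74.7%) and NC (70.9 to 74.6%), near the 72.7% in MA and 72.0% in NC of other genes with peaks. An Exon peak within 1 exon was listed in 26.5% of these host genes in MA (24.6 to 28.5%), beside 21.7% of other genes with peaks, and in 29.4% in NC (27.5 to 31.4%), beside 23.1%. Chromosome 19 held 4.14% of members and 10.6% of Exon peaks within 1 exon in MA, beside 6.74% of all MA peaks, and 4.64% and 10.4% in NC, beside 7.14% of all NC peaks.

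In the inputs, the host genes were more often higher in MA than other genes. The difference is that of log2(FPKM + 1), MA minus NC, for the tested genes, and a 2-fold difference on this scale was counted. Of 3520 tested host genes of either list, 548 (15.6%, 14.4 to 16.8%) were at least 2-fold higher in MA, beside 10.3% of all tested genes, and 73 (2.07%, 1.63 to 2.60%) at least 2-fold lower, beside 2.98%. The median difference was 0.29 for the host genes, 0.03 for the other tested genes and 0.11 over all tested genes. With the median of all tested genes set to 0, 388 host genes (11.02%) were 2-fold higher, beside 7.16% of all, and 109 (3.10%) lower, beside 4.16%, and the host median was 0.18. In bulk RNA, fewer cells of a type and less RNA per cell cannot be told apart.

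The difference was present in each class of worked-back gene length and of level. Among genes under 4000 exonic bases the medians were 0.16 for host genes and -0.05 for other tested genes, and among genes of 8000 bases or more 0.45 and 0.28. At 20 FPKM or more they were 0.02 and -0.18. For genes with a member in both lists, 18.1% were 2-fold higher and 1.42% lower, with a median of 0.33. For genes with a member in MA only the median was 0.31, with 13.1% higher and 1.61% lower, and for those with one in NC only it was 0.22, with 12.9% higher and 3.69% lower. Genes with an Exon peak within 1 exon had a median of 0.24, and genes with no peak in either list -0.09.

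**Figure D5:**
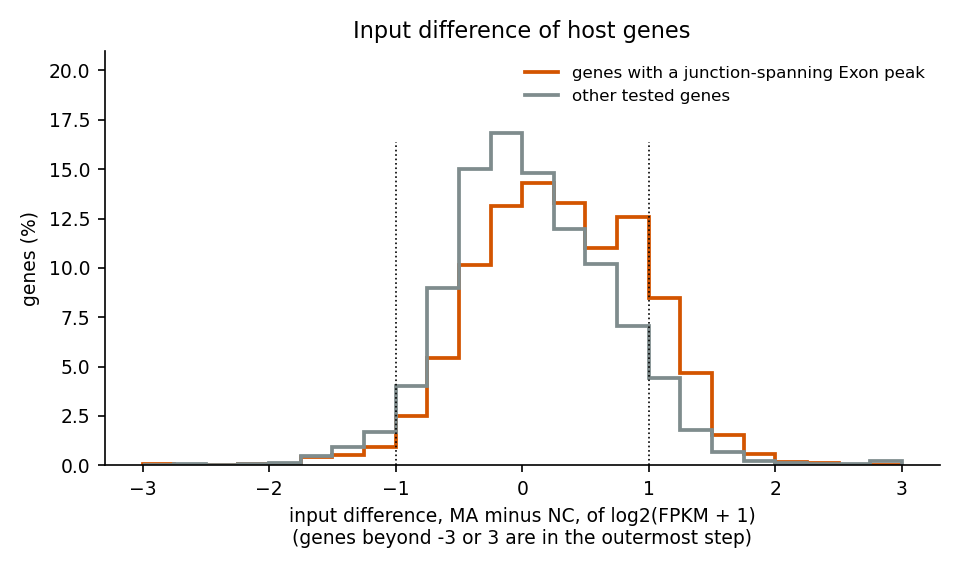
Share of genes (y axis, %) by input difference, MA minus NC, of log2(FPKM + 1) in steps of 0.25 (x axis), for 3520 genes with a junction-spanning Exon peak in either list (orange) and 7044 other tested genes (grey); dotted lines mark a 2-fold difference. The orange line lies to the right of the grey one, with medians of 0.29 and 0.03.

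The host genes with the highest input difference were SLC30A1, a zinc exporter, at 13.5 FPKM in MA and 1.22 FPKM in NC (difference 2.70), CCPG1, a receptor for autophagy of the endoplasmic reticulum, at 26.996 and 4.25 (2.42), MNS1, a ciliary and sperm flagellar protein, at 10.4 and 1.28 (2.32), the cadherin CDH19 at 14.5 and 2.12 (2.31) and the calcium-binding protein S100P at 5.76 and 0.40 (2.27). Without the pseudocount, the log2 ratio was 3.46 for SLC30A1 (exact interval 3.15 to 3.79) and 3.84 for S100P (2.75 to 5.19). This ratio is another measure than the difference above, which has the pseudocount. The intervals rest on the smallest whole reads that give the FPKM values. The reads can be a multiple of these, which would narrow the intervals. SLC30A1 and CCPG1 had 1 member in each list. MNS1 had 1 in MA, of 1288 exonic bases, and 2 in NC, CDH19 had 0 in MA and 1 in NC, and S100P 1 in MA and 0 in NC. At SLC30A1 the member covered 500.0 exonic bases in MA and 400.0 in NC.

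The lowest were SLC5A4, a sugar-transporter relative that senses glucose, at 0.84 FPKM in MA and 31.9 FPKM in NC (difference -4.16), PRDM7 at 4.79 and 44.3 (-2.97), GALNT3, which starts O-linked glycans, at 1.85 and 11.8 (-2.17), the proline dehydrogenase PRODH at 2.06 and 11.8 (-2.07) and the Z-disc protein LDB3 at 1.30 and 8.03 (-1.97). Without the pseudocount, the log2 ratio was -5.24 for SLC5A4 (interval -5.56 to -4.94). PRDM7 is a close copy of PRDM9, so that its reads are uncertain. SLC5A4, PRDM7 and GALNT3 had 0 members in MA and 1 in NC, and LDB3 had 1 in MA and 2 in NC. PRODH had 1 in MA and 0 in NC.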

How the data were processed

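The data were 4 meRIP-seq libraries, the MA and NC inputs and RIPs. Per the submitters' processing notes, Trimmomatic, HISAT2, HISAT, deepTools and ChIPseeker were used with GRCh38.p13; no source used here names the peak caller or versions. The authors deposited FPKM values of the inputs for 14416 genes, and for each condition a peak list with a fold (ratio) of RIP over input and a p-value and FDR per peak, which start at a fold of 1.5. The lists' log10 columns were not used. Starts count from 0 in the lists and from 1 here. Duplicate rows, 99 in MA and 132 in NC, were removed. Depth and gene lengths were worked back from the FPKM steps, which gave whole reads for 100.0% of the 13055 genes above 0 in both inputs; RIP depths were not analysed here. Lengths were found for 10467 of 10564 tested genes. The overlap and input steps were tested on simulated data. Differences used a pseudocount of 1 and genes that reached 1 FPKM in either input. Host genes with FPKM values numbered 2665 in MA and 2800 in NC. Named regions were, per list, the 5 highest folds with and without a partner among genes that reached 5 FPKM in each input, the 5 longest, the 5 genes with most members, the 5 highest and 5 lowest input differences, and up to 4 genes for each of 15 gene lists, with all genes of the exon junction and m6A lists. A few genes that this rule names are not reported here. The members and lists were chosen with earlier results of these data known. Python 3.11.15, pandas 2.3.3 and scipy 1.17.1 were used.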

Additional observations from a re-analysis of the deposited data

How the results depend on the processing

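The counts of members kept within 1.5 times the value given when every row was counted. Limiting Exon peaks to a fold of 2 or more gave spanning shares of 49.9% in MA and 48.7% in NC, equal numbers of Exon peaks 49.7% in NC, and host genes that reached 5 FPKM in each input 66.6% and 66.9%, an alternative chosen after seeing the data. The share of members with a partner was 47.1% in MA and 46.0% in NC with 50% of both spans, 58.5% and 56.9% with a member as partner, 5.11% and 4.87% with the same ends, 34.1% and 32.6% where a shared exonic base is certain, 68.0% and 77.8% with equal peak numbers, and 68.3% in NC with a fold of 2 or more in both lists. The planned overlap by exon blocks was not run, as the columns used hold no blocks. At a fold of 2 or more the median exonic length was 350.0 bases in MA and 301 in NC, and in genes at 5 FPKM or more the median fold was 2.32 and 2.59. The host genes 2-fold higher numbered 848 with a pseudocount of 0.1 (24.1%, beside 17.0% of all genes) and 137 with 5 (3.89%, beside 2.58%). Among the 1765 tested genes with members in both lists they numbered 320 (18.1%, beside 10.3%). Those lower numbered 35 with a pseudocount of 5 (0.99%, beside 1.46%) and 25 with members in both lists (1.42%, beside 2.98%). The median host difference was 0.34, 0.18, 0.18, 0.25 and 0.33 with a pseudocount of 0.1, of 5, with all genes centred, at 5 FPKM or more, and with members in both lists. The other 20 values stayed within the limits of the value given. No paired analysis was possible because each condition has 1 input and 1 RIP library and the labels carry no replicate numbers. Peak calling depends on reads, so absence from a list does not show absence of the mark, least of all for members of at most 160 bases.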
